A study of Arabidopsis thaliana with 24 samples.

Results

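Wild-type roots of the Arabidopsis thaliana accession Wassilewskija (WS) that flew with Blue Origin (mission NS-12) were compared with WS roots that flew with Virgin Galactic (mission VP-03). The members are the 3 flown WS libraries of each vehicle, chosen by their labels. These 6 of the 24 libraries of the series set the differences, and all genes were described. The filter and the variance of the fit drew on 18 libraries in 6 groups. These also held WS ground controls and flown and ground roots of the sku5 mutant from Blue Origin. Blue Origin seedlings were 11 days old and flew in 2019, and Virgin Galactic seedlings were 10 days old and flew in 2018. The WS seedlings compared were all unmutated. Before transport they grew upright on Phytagel plates with 0.5% sucrose at 19 ± 2 °C. The light was continuous and fluorescent, at about 80 µmol per square metre and second. At the launch site, plates for Blue Origin stood in a cultivator at 26 °C, while those for Virgin Galactic stood at room conditions under an LED bank. The temperature there is not given in the sources used here. Plates of both flights travelled inside black-out cloth and met about 3 minutes of microgravity. The Virgin Galactic craft was carried up by a mothership before release and glided to its landing, and the Blue Origin capsule came down on parachutes. For Virgin Galactic the peak load was 4.5 g going up and 3.5 g coming down, and for Blue Origin 3 g and 5.7 g. Blue Origin roots were fixed in RNAlater 33 minutes after landing, and the corresponding time for Virgin Galactic is not given in the sources used here. Launch vehicle, year, site, age, site temperature, site lighting and gravity profile all change together between the groups and cannot be told apart.

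The same contrast in WS ground controls, 3 libraries for each site, shares no library with the flown contrast. It has the same difference in site, year and age but no flight, so it was fitted beside the flown contrast and the difference between the contrasts was tested. Ground plates for Blue Origin were harvested 1 h after the flown ones. Within a group, all replicates were taken from 1 fixation tube. The p-values therefore cover only the variation among these libraries, which may be technical. Whole roots were sequenced, and fewer cells of a type and less RNA per cell cannot be told apart.

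Roots read touch, gravity, light, sugar supply and mineral supply at the same time. Calcium-binding proteins and ethylene response, zinc finger and WRKY factors are induced within minutes of wounding, touch or contact with microbes. A daily clock built from morning and evening factors runs in roots as well as leaves. When light or sugar runs short, the SnRK1 kinase system switches on genes that break down amino acids and sugars. Photosynthesis genes are mostly silent in dark-grown roots, but roots in the light green to some degree.

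Levels of poly(A) RNA were taken as FPKM (fragments counted per length of transcript and per sequenced total). That unit was inferred, and read totals are not known. Between 18463 and 18852 genes per flown library lay at 1 FPKM or more, and 20127 genes at that level in at least 3 of 18 WS and sku5 libraries were tested. The first principal component of the 6 flown libraries held 54.2% of the variance and separated the vehicles. The second held 15.8% and set Virgin Galactic replicate 2 apart, at 56.1 against -29.4 and -24.3 for the other Virgin Galactic libraries. Pearson's r across genes was 0.963 to 0.973 within Blue Origin, 0.947 to 0.959 within Virgin Galactic and 0.901 to 0.913 between them. The median SD of a gene on the log2 scale was 0.20 at Blue Origin and 0.26 at Virgin Galactic. Markers of root tissues were present in every library: the summed level of 8 endodermis markers was 238 to 463 FPKM at Blue Origin and 123 to 171 FPKM at Virgin Galactic, and of 14 xylem markers 240 to 277 and 162 to 235 FPKM. Genes of green tissue were higher at Blue Origin, as described below with the photosynthesis genes.

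A gene is called here when limma gives a Benjamini-Hochberg adjusted p under 0.05 over all tested genes. Differences are log2(FPKM + 1) at Blue Origin minus Virgin Galactic, which understates the change of low genes. Of 20127 genes, 4194 were called (20.8%), 2023 higher at Blue Origin (10.1%) and 2171 lower (10.8%). Large differences were more often toward lower levels at Blue Origin: 107 called genes were lower by 3 or more on the log2 scale and 30 were higher by as much. The median over all tested genes was -0.03. The 3 Blue Origin values did not overlap the 3 Virgin Galactic values at 7801 genes, 38.8% of those tested, and 4056 of these were called. Without any 1 of the 6 flown libraries the number of calls was 3023 to 3522, of which 2879 to 3166 were among the 4194.

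In ground roots 6481 genes were called (32.2%), 3407 higher at Blue Origin (16.9%) and 3074 lower (15.3%). Of the flown calls, 2257 were also called in the same direction on the ground, 53.8% of the flown calls and 34.8% of the ground calls. The sign was the same for 83.9% of flown calls, against 65.2% of all tested genes. The difference between the flown and the ground contrast was called for 1375 genes (6.83%), 731 toward higher levels at Blue Origin in flown roots (3.63%) and 644 toward lower levels (3.2%). That count was unstable, at 467 without Blue Origin ground replicate 1 and 616 without Virgin Galactic flown replicate 2. Of 1818 genes called in flown roots only, the difference was called for 324. In 119 genes both contrasts were called in opposite directions, 73 of them higher at Blue Origin in flown roots and lower on the ground.

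**Figure D1:**
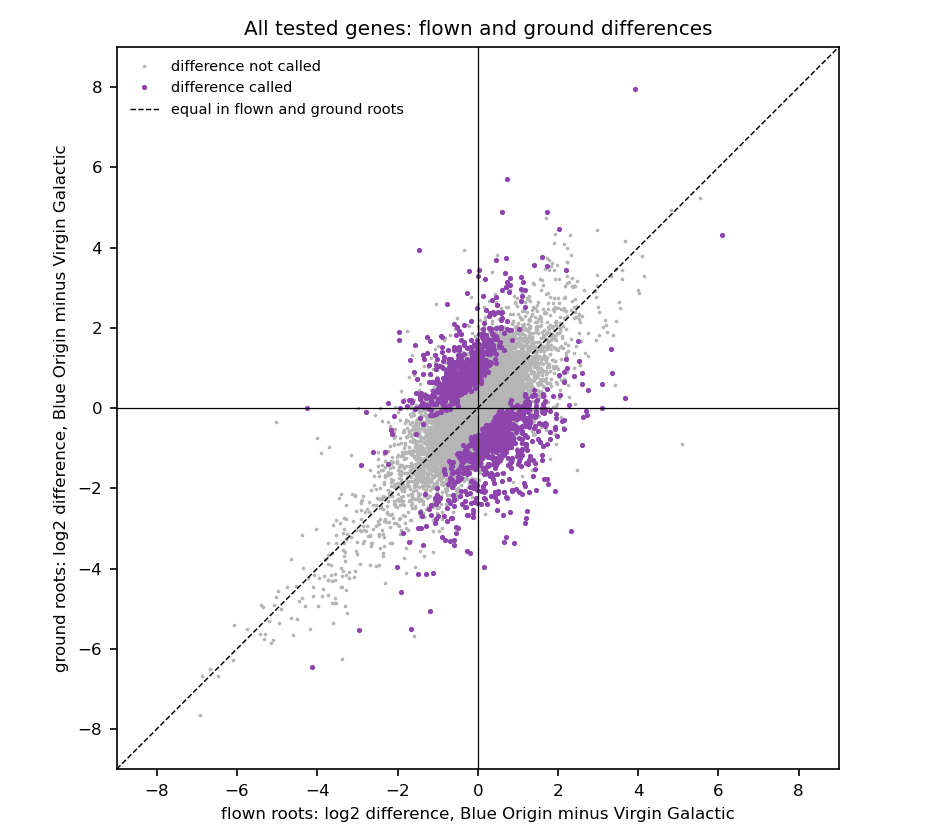
Log2 difference (Blue Origin minus Virgin Galactic) of each of 20127 genes in flown roots (horizontal axis) and in ground roots (vertical axis); each point is a gene, and purple points are the 1375 genes whose difference between the contrasts was called. The lower left arm holds the genes far lower at Blue Origin in both, and the lone point near 4 and 8 is TT4.

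The largest differences were in defence genes, several of which were near 0 in Blue Origin roots and clearly expressed in Virgin Galactic roots. Of 12 listed defence genes 8 were tested, and 7 of these were lower at Blue Origin and none higher, with a median of -2.78 against -0.03 for all genes. CYP71A12, a cytochrome P450 that makes an intermediate of the antimicrobial compound camalexin and related indoles, was at 0.33, 0.50 and 0.89 FPKM in Blue Origin replicates 1 to 3. It was at 377, 85.1 and 184 FPKM in the Virgin Galactic replicates, a log2 difference of -6.87 (SE 0.53, adjusted p 1.71e-07). The Virgin Galactic libraries spread widely, with replicate 2 the lowest, yet all lay far above Blue Origin. PAD3, which catalyses the last step of camalexin synthesis, was at 2.38, 2.76 and 4.02 FPKM against 68.8, 13.4 and 23.8 FPKM (-2.87, SE 0.41, adjusted p 0.00012). CYP71A13, the close paralogue of CYP71A12, was listed at 0 in all 3 Blue Origin libraries and at 27, 2.18 and 8.94 FPKM at Virgin Galactic. These paralogues are similar in sequence, so reads may have been split between them. Genes around salicylic acid and systemic immunity lay the same way. FMO1, which makes the mobile immune signal N-hydroxypipecolic acid, was at 0.46, 0 and 0.07 FPKM against 8.42, 4.86 and 10.8 FPKM (-2.90, SE 0.29, adjusted p 3.52e-06). PAD4, a lipase-like immune regulator, was at 14.4, 17.2 and 21.2 FPKM against 78.7, 43.7 and 70.5 FPKM (-1.78, SE 0.21, adjusted p 2.06e-05). WRKY70, a factor between salicylate and jasmonate signalling, was at 11.1, 18.5 and 14.6 FPKM against 197, 47.1 and 105 FPKM (-2.70, SE 0.39). In WS, FMO1 and CYP71A13 passed the filter on low values through the Virgin Galactic libraries alone, so for these a difference was implied by the filter. The marker proteins of established salicylate or jasmonate defence, PR1, PR5, BGL2 and PDF1.2, were not tested, as none reached 2 FPKM in any flown library. FRK1, a receptor kinase gene induced by bacterial flagellin, was not called, at 0.91, 1.76 and 0.67 FPKM against 1.70, 0.40 and 0.17 FPKM. On the ground 6 of the 8 were lower at Blue Origin and none was higher, and the difference between flown and ground was called for none of the 8.

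The 12 named genes furthest lower at Blue Origin were picked by size and not by function, and most have known roles in immunity. Their differences ran from -6.87 to -4.30. WRKY51, a factor by which salicylate restrains jasmonate responses, was at 1.2, 0 and 0 FPKM against 158, 75.2 and 128 FPKM (-6.48, SE 0.35, adjusted p 4.9e-09). CYP81F2, which modifies indole glucosinolates for pathogen defence, was at 0.46, 1.69 and 1.98 FPKM against 226, 101 and 157 FPKM (-6.08, SE 0.39). PROPEP3, the precursor of a danger peptide released by damaged cells, was at 4.67, 0 and 2.1 FPKM against 157, 73.8 and 117 FPKM (-5.43, SE 0.54). In each, every Virgin Galactic library stood far above the highest Blue Origin library. NAC042, a factor that induces camalexin genes, differed by -5.33 (SE 0.40), and PBS3, which completes salicylate synthesis, by -5.19 (SE 0.33). CBP60G, a calmodulin-binding factor that drives salicylate synthesis genes, differed by -4.98 (SE 0.49), and MPK11, a kinase of the immune cascade, by -4.66 (SE 0.39). CYP82C2, a P450 of the indole carbonylnitrile branch, differed by -4.50 (SE 0.51) and GRX480, a glutaredoxin that binds TGA factors, by -4.39 (SE 0.33). GSTU12, a glutathione transferase, differed by -5.11 (SE 0.35) and the P450 gene CYP706A2 by -4.30 (SE 0.39). CYP82C2 and PBS3 stayed under 1 FPKM in every Blue Origin WS library and passed the filter through the Virgin Galactic libraries, which implied their direction. All 12 were also called lower at Blue Origin on the ground, and the difference between flown and ground was called for none.

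The defence, early stress, morning clock and dark and sugar lists were, among lists with a motif to search, those with the largest share of members called in 1 direction. Upstream sequence is shown for members of each, beginning with defence and early stress. The 250 bases before the annotated start were read from the RefSeq TAIR10.1 genome, which is of the accession Col-0 and not WS, and are printed 5′ to 3′ on the gene's strand. The core W-box TTGAC, to which WRKY factors bind, was searched on both strands and is in capitals, as GTCAA where it lies on the other strand. CYP71A12 is transcribed from the minus strand (chr2:13101372-13101621), FMO1 from the minus strand (chr1:6653196-6653445), ERF6 from the minus strand (chr4:9754162-9754411) and CZF1 from the plus strand (chr2:16771747-16771996).
CYP71A12: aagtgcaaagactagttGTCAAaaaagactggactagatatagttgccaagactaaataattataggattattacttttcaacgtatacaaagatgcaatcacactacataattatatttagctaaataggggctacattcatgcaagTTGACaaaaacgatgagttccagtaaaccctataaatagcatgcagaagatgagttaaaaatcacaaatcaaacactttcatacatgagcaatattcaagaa
FMO1: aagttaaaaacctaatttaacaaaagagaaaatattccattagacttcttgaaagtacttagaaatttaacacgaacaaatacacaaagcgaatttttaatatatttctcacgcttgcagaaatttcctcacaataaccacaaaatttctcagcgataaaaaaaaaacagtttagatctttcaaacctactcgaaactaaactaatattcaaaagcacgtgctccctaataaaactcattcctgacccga
ERF6: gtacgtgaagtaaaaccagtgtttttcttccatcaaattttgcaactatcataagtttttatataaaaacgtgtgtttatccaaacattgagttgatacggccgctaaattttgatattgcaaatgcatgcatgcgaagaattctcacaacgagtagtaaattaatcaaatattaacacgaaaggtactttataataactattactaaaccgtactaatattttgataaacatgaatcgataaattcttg
CZF1: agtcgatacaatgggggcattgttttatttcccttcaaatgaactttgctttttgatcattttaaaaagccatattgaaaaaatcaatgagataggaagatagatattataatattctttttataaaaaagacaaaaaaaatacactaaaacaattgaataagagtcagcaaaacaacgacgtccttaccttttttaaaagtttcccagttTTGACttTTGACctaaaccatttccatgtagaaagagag
CYP71A12 held 2 matches, 233 and 102 bases before the start, CZF1 held 2 matches, 39 and 32 bases before it, and FMO1 and ERF6 held none. Of the listed genes, 6 of 12 defence genes and 14 of 19 early stress genes had the motif in this window, and so had 44.9% of 27443 promoters of the genome. A match is a description of the letters and not a binding site.

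Factors that are induced within minutes by many stresses were also lower in Blue Origin roots. Of 19 early stress factors 14 were lower and none higher, with a median of -1.14, and all 19 had a negative sign. ERF6, an ethylene response factor of growth restraint under stress, was at 6.42, 7.45 and 4.89 FPKM against 68.2, 33.3 and 83.7 FPKM (-3.03, SE 0.30, adjusted p 3.36e-06). STZ, a zinc finger repressor induced by salt, cold and wounding, was at 11.2, 21.4 and 15.4 FPKM against 99.3, 69.2 and 112 FPKM (-2.49, SE 0.28). ERF5, a close relative of ERF6, was at 14.7, 24.0 and 14.3 FPKM against 60.1, 72.8 and 63.9 FPKM (-1.87, SE 0.19), and the tandem zinc finger gene CZF1 at 49.6, 59.0 and 55.5 FPKM against 187, 129 and 211 FPKM (-1.64, SE 0.17). None of these 4 genes overlapped between the vehicles. WRKY33, which activates camalexin genes, lay the same way at -2.21 (SE 0.25), while ERF4, ERF104, ZF2, MYBR1 and WRKY18 were not called. On the ground 16 of the 19 were lower at Blue Origin and 1, MYBR1, was higher. The difference between flown and ground was called for WRKY40 alone, at 1.71 (SE 0.35): its flown difference was -0.99 and its ground difference -2.70. Over all WRKY factors, a family grouped by the reference's product names after values had been seen, 60 were tested, 19 were lower and 2 were higher (WRKY8 at 1.1 and WRKY57 at 1.06).

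**Figure D2:**
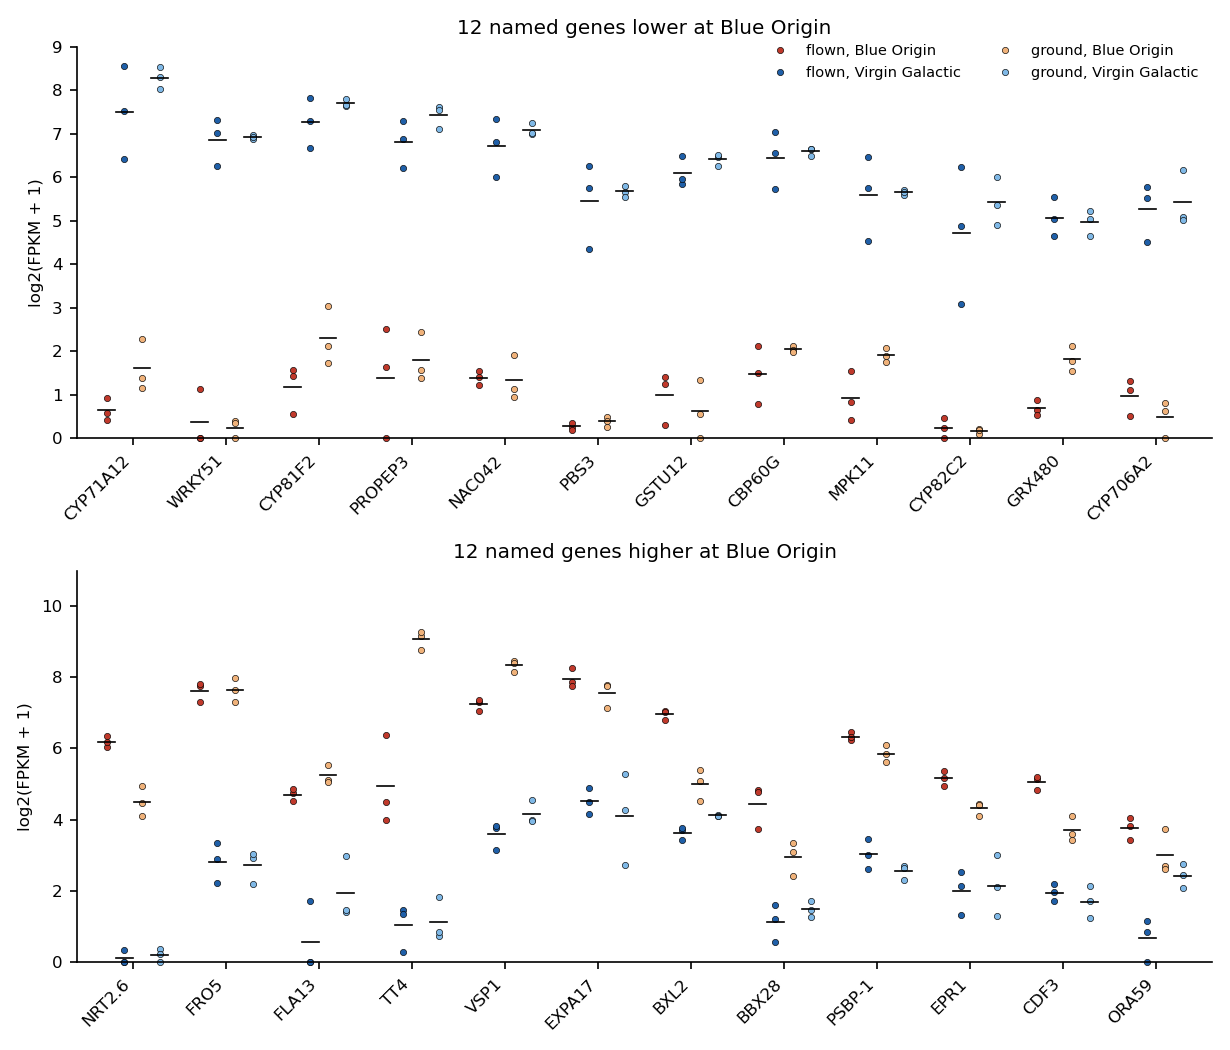
log2(FPKM + 1) in each library of the 12 named genes lowest (top) and the 12 highest (bottom) at Blue Origin relative to Virgin Galactic in flown roots; points are libraries, short lines are means of 3, red and dark blue are flown roots, and pale orange and pale blue are ground roots. Flown groups do not overlap in any of the 24, and ground roots lie near the flown roots of the same site with called differences between flown and ground for TT4, ORA59, BXL2, BBX28 and NRT2.6.

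Of 9 listed calcium and touch genes, 5 were lower at Blue Origin and none was higher in flown roots, while on the ground 4 were lower and 4 higher. TCH3, a calmodulin-like protein first found as a touch-induced gene, was at 35.9, 41.4 and 41.8 FPKM against 766, 264 and 549 FPKM (-3.57, SE 0.27, adjusted p 1.43e-07). The calmodulin-like genes CML37 at -3.31 (SE 0.41) and CML38 at -2.27 (SE 0.39), both induced by wounding, and CBP60G were lower as well. These 4 were lower on the ground too. The remaining one, TCH2, another touch-induced calmodulin-like gene, was at 12.7, 26.2 and 16.1 FPKM against 35.2, 57.6 and 25.6 FPKM in flown roots, where the groups overlapped (-1.05, SE 0.27, adjusted p 0.0108). In ground roots it was at 71.0, 66.9 and 47.9 FPKM at Blue Origin against 25.9, 37.2 and 23.9 FPKM, higher by 1.07, and the difference between the contrasts was -2.12 (SE 0.38, adjusted p 0.00541). CML23, a calmodulin-like gene, MSL10, a mechanosensitive channel, and TCH4, a touch-induced xyloglucan enzyme, were higher at Blue Origin on the ground too, and the difference between the contrasts was called for CML23 at -1.22 (SE 0.33) and MSL10 at -1.68 (SE 0.38). None of these 3 genes was called in flown roots, nor was MCA1, a calcium channel protein of mechanosensing.

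Hormone genes tied to wounding followed no common direction. Here and in the lists after it, counts of 1 or 2 called members often changed when a single library was left out. Of 15 jasmonate genes 6 were lower and 3 were higher. The lower ones were synthesis enzymes and repressors: AOS, which opens the jasmonate pathway, at 9.65, 9.78 and 8.14 FPKM against 16.2, 19.0 and 22.4 FPKM (-0.98, SE 0.18), AOC3 at -1.25 (SE 0.15) and the repressor JAZ1 at -1.58 (SE 0.25). VSP1, a storage acid phosphatase that jasmonate induces in shoots, was among the 12 highest, at 131, 158 and 164 FPKM against 12.7, 13.1 and 7.91 FPKM (3.66, SE 0.19, adjusted p 2.56e-09). ORA59, a factor that joins ethylene and jasmonate signals, was at 13.0, 9.81 and 15.3 FPKM against 1.22, 0 and 0.77 FPKM (3.1, SE 0.43). Ground roots did not differ detectably in ORA59 (0.59, SE 0.43), and the difference between the contrasts was called at 2.51 (SE 0.61, adjusted p 0.0236). Of 10 indole glucosinolate genes 3 were lower and 1 was higher. The activator MYB51 was at 6.23, 8.80 and 7.74 FPKM against 111, 57.9 and 114 FPKM (-3.42, SE 0.24), whereas CYP79B3, the first enzyme of the pathway, was at 221, 260 and 143 FPKM against 82.1, 46.7 and 37.9 FPKM (1.92, SE 0.30). Of 16 ethylene genes 4 were higher and 3 lower, and without Virgin Galactic replicate 2 only 1 was higher, while the lower count ran from 1 to 6 over the libraries left out. The receptor gene ERS1 was higher at 0.93 (SE 0.16). Among 13 core abscisic acid genes 3 were lower and 1 higher, led by HAI1, a phosphatase of the pathway, at -2.25 (SE 0.39). Of 23 auxin genes 2 were lower and 1 higher, and each of those calls was lost when some single library was left out. None of 9 cytokinin response genes was called.

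**Figure D3:**
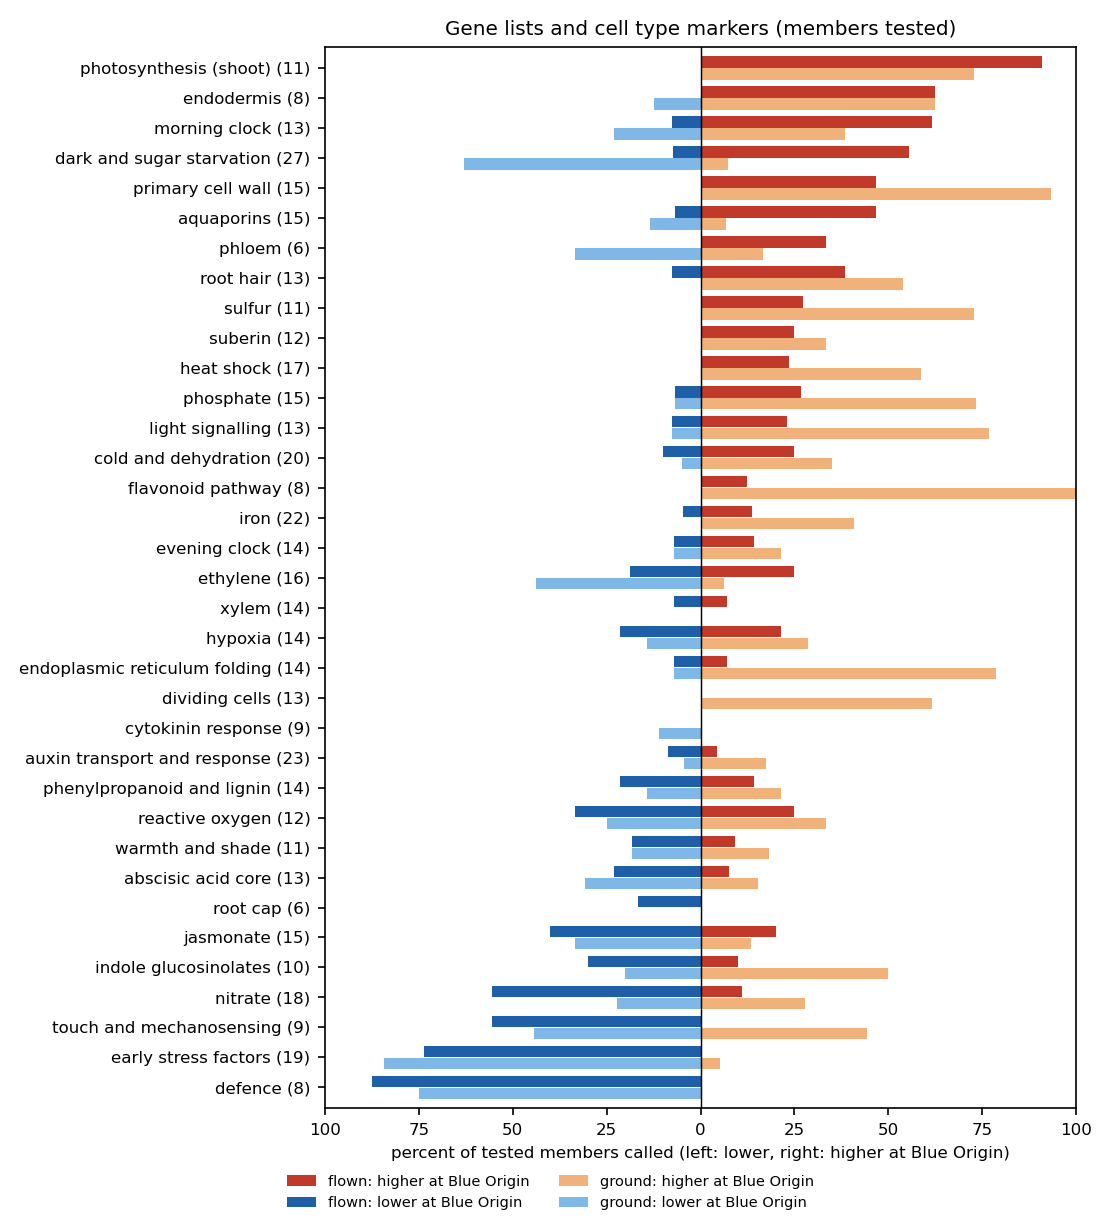
Percent of tested members called higher (right) or lower (left) at Blue Origin in flown roots (red, dark blue) and in ground roots (pale orange, pale blue), by limma's adjusted p, for each list, with the number tested in brackets. Photosynthesis genes stand at the top and defence genes at the bottom, and the dark and sugar list points right in flown and left in ground roots.

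Photosynthesis genes were expressed at higher levels in Blue Origin roots. Of 11 listed markers of green tissue 10 were higher and none lower, with a median of 1.51. Their summed level was 657 to 719 FPKM at Blue Origin and 198 to 306 FPKM at Virgin Galactic, none of the 11 was at 0 in a whole group, and the groups did not overlap. RBCS1A, the small subunit of Rubisco, was at 248, 254 and 183 FPKM against 58.3, 67.2 and 54.1 FPKM (1.90, SE 0.25, adjusted p 5.4e-05). GUN5, a subunit of the chlorophyll-making magnesium chelatase, was at 19.0, 33.9 and 17.8 FPKM against 1.03, 2.98 and 2.31 FPKM (2.98, SE 0.29). RCA, the Rubisco activase, differed by 2.40 (SE 0.33) and GAPB, a chloroplast glyceraldehyde phosphate dehydrogenase, by 2.38 (SE 0.32). PSBP-1 of the oxygen-evolving complex was among the 12 highest of all named genes, at 74.1, 86.5 and 79.2 FPKM against 7.03, 9.97 and 5.08 FPKM (3.31, SE 0.19, adjusted p 7.87e-09). Of 53 nuclear photosystem and antenna genes, grouped after values had been seen, 35 were higher and 1, LHCB4.3, was lower, with a median of 1.30. Their summed level was 1235 to 1450 FPKM against 398 to 555 FPKM. On the ground, 31 of the 53 were higher and 2 lower. How much shoot tissue entered each library, against greening of the root itself, was not tested.

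Light signalling genes did not move as a group in flown roots. Of 13 listed, 3 were higher and 1 was lower, and without Virgin Galactic replicate 2 only 1 was higher and none lower. STO, a B-box protein of light signalling, was at 161, 250 and 154 FPKM against 41.4, 27.3 and 52.2 FPKM (2.21, SE 0.28, adjusted p 4.99e-05). BBX28, another B-box protein and one of the 12 highest named genes, was at 27.4, 12.3 and 26.6 FPKM against 2.00, 0.47 and 1.32 FPKM (3.33, SE 0.37). Both were higher at Blue Origin on the ground as well. Of the 13 listed light signalling genes, 10 were higher and 1 lower on the ground. The difference between the contrasts was called toward lower flown values for 3 of them and toward higher ones for 1. For the flavonoid pathway, which light and especially ultraviolet switch on, the 13 listed genes summed to 54.0 to 213 FPKM in flown and 826 to 1102 FPKM in ground roots at Blue Origin. At Virgin Galactic the sums overlapped, at 51.8 to 70.4 FPKM flown and 50.6 to 62.3 FPKM on the ground. TT4, the chalcone synthase that opens the pathway, was the only 1 of 8 tested genes called in flown roots, at 14.8, 81.8 and 21.7 FPKM against 1.73, 1.55 and 0.22 FPKM (3.92, SE 0.65, adjusted p 0.000542). In ground roots it stood at 574, 436 and 616 FPKM against 0.64, 2.52 and 0.78 FPKM, a difference of 7.95. All 8 were higher at Blue Origin on the ground, and the difference between the contrasts was called for 6 of the 8, all toward a smaller excess in flown roots. FLS1, the flavonol synthase, was at 3.67, 18.9 and 6.89 FPKM against 4.70, 4.26 and 6.05 FPKM in flown roots and at 168, 124 and 157 FPKM against 3.93, 3.61 and 4.62 FPKM on the ground.

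Morning clock genes were higher in Blue Origin roots, while evening genes were mixed. Of 13 morning genes 8 were higher and 1 lower, with a median of 1.96. LNK2, a co-activator that works with the REVEILLE factors, was at 70.9, 89.0 and 73.3 FPKM against 8.29, 4.80 and 6.98 FPKM (3.38, SE 0.42, adjusted p 3.58e-05). EPR1, a MYB-like factor also called RVE7, was at 29.8, 40.2 and 34.8 FPKM against 1.48, 3.38 and 4.71 FPKM (3.17, SE 0.36, adjusted p 1.3e-05). LNK1, under 1 FPKM in every Virgin Galactic library and so high at Blue Origin by the filter, differed by 2.42 (SE 0.33), LNK3 by 2.56 (SE 0.47) and LNK4 by 2.28 (SE 0.49). The core morning repressors CCA1, at 73.3, 147 and 66.6 FPKM against 13.3, 22.9 and 19.5 FPKM (2.24, SE 0.52), and LHY, at 72.6, 163 and 70.4 FPKM against 21.4, 24.1 and 25.8 FPKM (1.95, SE 0.48), were higher too, with Blue Origin replicate 2 the highest in both. The exception was RVE2, a relative of CCA1, at 97.8, 278 and 138 FPKM against 450, 451 and 379 FPKM (-1.45, SE 0.30). PRR9, an early-day repressor, was called at 1.96 (SE 0.57), and PRR7, RVE8, RVE1 and LCL1 were not called. On the ground 5 morning genes were higher at Blue Origin and 3 lower. Of 14 evening genes 2 were higher and 1 lower: CDF3, a repressor of flowering, was at 34.3, 36.0 and 27.7 FPKM against 2.86, 2.24 and 3.57 FPKM (3.12, SE 0.25), its relative CDF2 differed by 1.42 (SE 0.28), and BOA, an evening complex homologue, was at 1.68, 1.86 and 3.2 FPKM against 10.6, 16.1 and 11.9 FPKM (-2.10, SE 0.26). The median of the evening list was -0.21. The hour of day at fixation was not compared between the flights.

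EPR1 and LNK2 were read as the morning genes with the smallest p by limma in flown roots. Only the promoter of EPR1 is shown, the 1 morning gene of 13 that held the evening element AAAATATCT, which CCA1-like factors bind. The window lies on the minus strand at chr1:6308244-6308493, the element is in capitals, 50 bases before the start, and LNK2 had no match.
EPR1: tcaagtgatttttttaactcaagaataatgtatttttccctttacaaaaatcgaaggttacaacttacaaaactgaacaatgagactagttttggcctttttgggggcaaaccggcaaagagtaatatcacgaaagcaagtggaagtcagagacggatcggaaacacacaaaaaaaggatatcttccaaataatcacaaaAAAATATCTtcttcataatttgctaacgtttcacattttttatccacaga
The element was in 2.36% of all 27443 promoters.

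**Figure D4:**
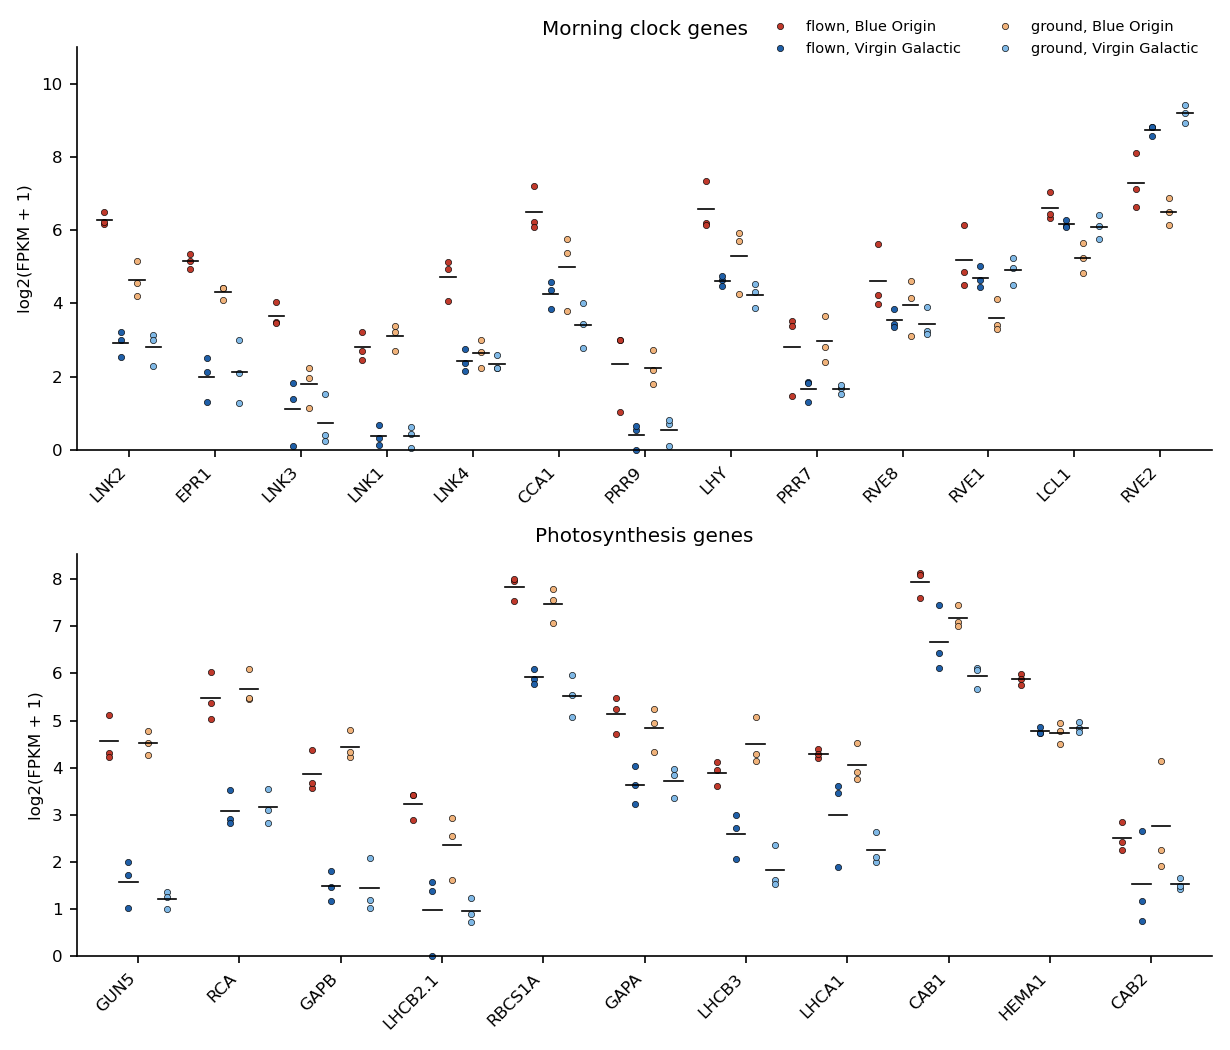
log2(FPKM + 1) in each library of 13 morning clock genes (top) and 11 photosynthesis markers (bottom), ordered by the flown difference; points are libraries, short lines are means of 3, red and dark blue are flown roots and pale orange and pale blue are ground roots. In flown roots most morning genes lie higher at Blue Origin, RVE2 lies lower, and the photosynthesis markers apart from CAB2 do not overlap.

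Genes of dark and sugar starvation were higher at Blue Origin in flown roots and lower at Blue Origin in ground roots. Of 27 listed genes 15 were higher and 2 lower in flown roots, with a median of 0.90. On the ground 2 were higher and 17 lower, with a median of -0.95. The difference between the contrasts was called for 19 of the 27, all toward higher flown values at Blue Origin. The summed level of the list was 3236 to 4215 FPKM in flown Blue Origin roots and 1493 to 2253 FPKM in flown Virgin Galactic roots. It was 806 to 1428 FPKM in Blue Origin and 1941 to 2747 FPKM in Virgin Galactic ground roots. SEN1, a senescence gene that darkness induces, was at 284, 280 and 388 FPKM against 73.6, 45.2 and 70.9 FPKM in flown roots (2.32, SE 0.57, adjusted p 0.00814). In ground roots it was at 3.12, 14.9 and 18.8 FPKM at Blue Origin against 84.7, 57.2 and 153 FPKM, and the difference between the contrasts was 5.40 (SE 0.80, adjusted p 0.00245), the largest positive value among the genes named for that difference. At Blue Origin the flown libraries all lay far above the ground libraries, and at Virgin Galactic the flown and ground libraries overlapped.

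Sugar and amino acid genes were among the members called higher in flown roots. STP1, a hexose transporter of the plasma membrane, was at 171, 118 and 202 FPKM against 50.9, 51.4 and 46.1 FPKM (1.67, SE 0.22, adjusted p 7.19e-05), and DIN10, a raffinose synthase-like gene, at 516, 441 and 625 FPKM against 166, 81.3 and 135 FPKM (2.09, SE 0.30). Members that break down branched-chain amino acids and were called higher included IVD, which oxidises leucine and valine products, by 1.59 (SE 0.33), MCCA, a subunit of methylcrotonyl-CoA carboxylase, by 1.80 (SE 0.38), and BCE2, a subunit of the branched-chain dehydrogenase, by 1.61 (SE 0.42). ERD5, the proline dehydrogenase, was at 261, 404 and 337 FPKM against 151, 108 and 120 FPKM (1.39, SE 0.19). The trehalose phosphate synthase-like genes TPS8, TPS9, TPS10 and TPS11 differed by 0.98 to 1.60, and AKINBETA1, a subunit of SnRK1, by 1.11 (SE 0.24). ASN1, the dark-induced asparagine synthetase, was higher at Blue Origin in flown roots by 2.94 (SE 0.49) and on the ground by 2.76 (SE 0.49). The 2 lower genes encode bZIP factors, GBF6, also known as bZIP11, at 2.96, 3.03 and 4.62 FPKM against 13.5, 17.7 and 10.5 FPKM (-1.71, SE 0.27), and BZIP53 at -1.15 (SE 0.16). bZIP1 was not called in flown roots and was lower at Blue Origin on the ground.

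The window before STP1, which had the smallest p of the list, is shown as an example of a promoter without the G-box CACGTG, which bZIP factors bind. It lies on the plus strand at chr1:3776986-3777235.
STP1: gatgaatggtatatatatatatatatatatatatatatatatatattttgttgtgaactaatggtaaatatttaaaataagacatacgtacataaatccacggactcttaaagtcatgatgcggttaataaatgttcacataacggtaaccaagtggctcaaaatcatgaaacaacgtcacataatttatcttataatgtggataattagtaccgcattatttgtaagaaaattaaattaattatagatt
ERD5 had no match either, 4 of the 27 genes had one, and 6.49% of all promoters did.

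**Figure D5:**
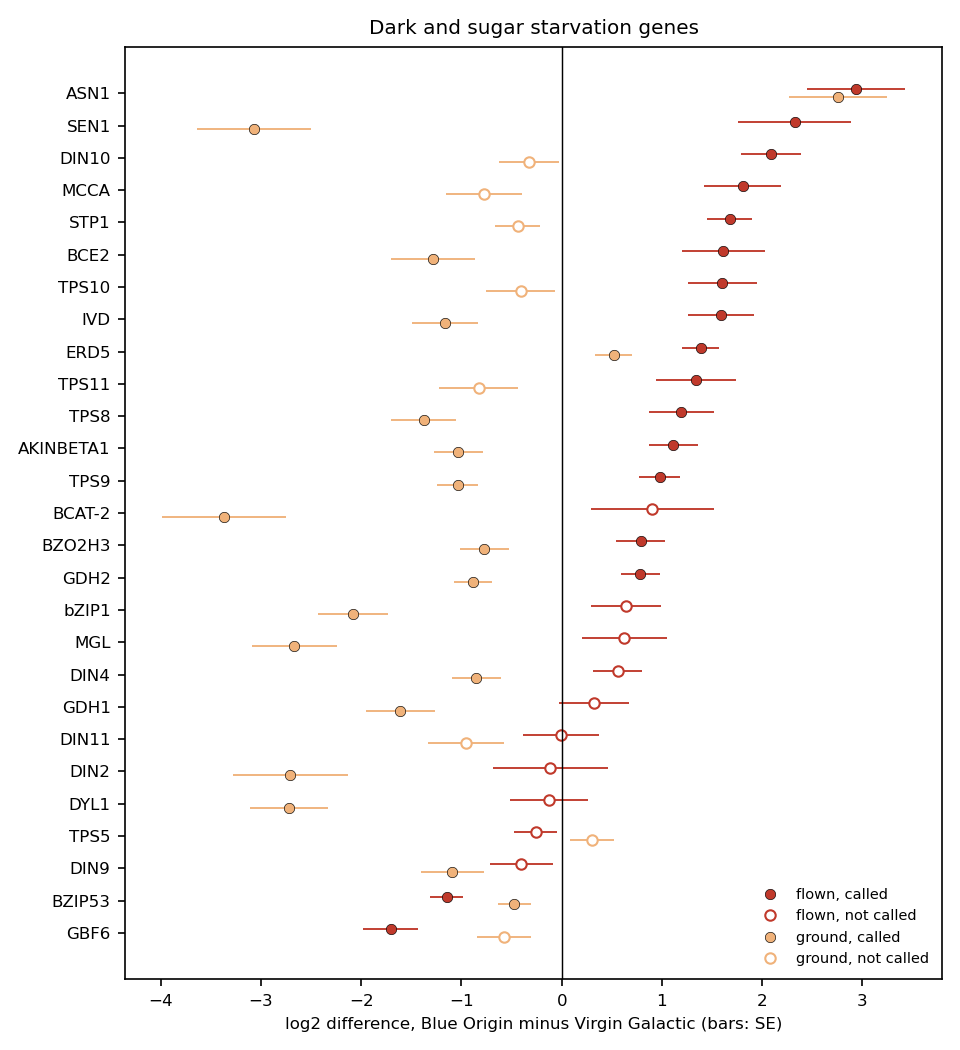
Log2 difference (Blue Origin minus Virgin Galactic) of 27 dark and sugar starvation genes in flown (red) and ground (pale orange) roots; bars are standard errors and filled points are called by limma. Flown points lie mostly right of 0 and ground points mostly left, with ASN1 and ERD5 right of 0 in both.

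Genes named for the difference between the contrasts included others of this kind, picked by size. GAT1_2.1, a glutamine amidotransferase-like gene, was at 175, 240 and 248 FPKM against 95.9, 43.4 and 78.7 FPKM in flown roots (1.65, SE 0.33) and was lower at Blue Origin on the ground (-1.76, SE 0.33), a difference of 3.41 (SE 0.46). BCAT-2, a branched-chain aminotransferase, differed between the contrasts by 4.27 (SE 0.87) and was not called in flown roots. SWEET12, a sucrose exporter, and ASPGB1, an asparaginase, differed by 3.87 (SE 0.85) and 3.86 (SE 0.52). Both were lower on the ground, at -5.06 and -5.51, and in flown roots ASPGB1 was lower at -1.65 (SE 0.37) while SWEET12 was not called at -1.20 (SE 0.60).

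Genes of nitrate assimilation were lower at Blue Origin, and some of nitrate uptake were higher. Of 18 nitrate genes 10 were lower and 2 higher, with a median of -0.58, and without Blue Origin replicate 2 only 6 were lower. The higher ones were NRT2:1 and its partner protein gene WR3 (1.1). The nitrate reductase genes were lower: NIA1 was at 4.74, 2.14 and 4.09 FPKM against 31.9, 39.7 and 22 FPKM (-2.80, SE 0.37, adjusted p 6.45e-05), and NIA2 at 37.8, 19.6 and 38.7 FPKM against 90.6, 90.8 and 83.5 FPKM (-1.49, SE 0.26). NIR1, the nitrite reductase, differed by -1.35, and NRT1.1, the transceptor that senses nitrate, by -1.59. NRT1.5, which loads nitrate into the xylem, was at 509, 790 and 554 FPKM against 1297, 1242 and 1592 FPKM (-1.17, SE 0.20). NRT2.6, a nitrate transporter gene outside the list and named by size, had the largest positive difference of all named genes, at 65.3, 70.9 and 80.4 FPKM against 0.25, 0 and 0 FPKM (6.08, SE 0.32, adjusted p 3.16e-09). It was under 1 FPKM in every Virgin Galactic library and passed the filter through the Blue Origin libraries, which implied its direction. NRT2:1, the main high-affinity nitrate uptake transporter, was at 22.8, 23.7 and 42.4 FPKM against 2.26, 1.75 and 5.00 FPKM (2.96, SE 0.51). Its relative NRT2.3 was at 9.03, 12.2 and 10.1 FPKM and was listed at 0 in all Virgin Galactic flown libraries. On the ground NRT2.6 and NRT2:1 were also higher at Blue Origin, whereas NIA1 was not called (-0.09, SE 0.37) and the difference between the contrasts was called for it at -2.71 (SE 0.52).

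Among other minerals, 26.7% of phosphate and 27.3% of sulfur genes were called higher in flown roots, against 10.1% of all genes. Of 15 phosphate genes 4 were higher and 1 lower, led by PHO1;H1, a phosphate exporter of the vasculature, at 18.4, 20.7 and 23.0 FPKM against 4.53, 5.74 and 1.94 FPKM (2.18, SE 0.26), and by the uptake transporter PHT1;1 at 1.37 (SE 0.33). The higher count fell to 2 without Blue Origin replicate 2. PHT1;3, a further uptake transporter, was at 8.79, 10.4 and 14.6 FPKM and listed at 0 in the Virgin Galactic flown libraries. Of 11 sulfur genes 3 were higher and none lower, among them SULTR4;2, which releases sulfate from the vacuole, at 1.42 (SE 0.29), and SDI1, a marker of sulfur limitation, at 1.78 (SE 0.43). With a flown library left out, 2 to 4 sulfur genes were higher. Of 22 iron genes 3 were higher and 1 lower, and no higher call was left without Virgin Galactic replicate 2. On the ground 11 phosphate, 8 sulfur and 9 iron genes of these lists were higher at Blue Origin, and 1 phosphate gene was lower. Genes of copper and superoxide handling, grouped here after their values had been seen, are given next. FRO5, a reductase that prepares copper for uptake at the root surface, was at 215, 157 and 225 FPKM against 9.09, 3.62 and 6.38 FPKM (4.82, SE 0.34, adjusted p 7.82e-08). The copper-zinc superoxide dismutase genes were lower, CSD1 at 51.8, 66.8 and 61.5 FPKM against 309, 320 and 320 FPKM (-2.39, SE 0.22) and CSD2 at 28.6, 34.3 and 32.0 FPKM against 151, 124 and 116 FPKM (-2.0, SE 0.15). The iron superoxide dismutase FSD1 was higher, at 1449, 1198 and 1459 FPKM against 562, 548 and 428 FPKM (1.42, SE 0.14). All 4 were called in the same direction on the ground. Of the 12 reactive oxygen genes in the list, 3 were higher and 4 lower, with the catalase CAT2 higher at 1.26 (SE 0.16).

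Among cell wall and water channel genes more were called higher than lower at Blue Origin. Of 15 primary wall genes 7 were higher and none lower, though only 2 remained without Virgin Galactic replicate 3. The cellulose synthases CESA1, at 114, 131 and 108 FPKM against 65.5, 78.0 and 71.8 FPKM (0.70, SE 0.11), and CESA3, named CEV1 in the reference, at 197, 218 and 189 FPKM against 119, 119 and 123 FPKM (0.73, SE 0.11), did not overlap between the vehicles. EXPA17, a wall-loosening expansin, was at 231, 216 and 308 FPKM against 17.0, 28.4 and 21.6 FPKM (3.45, SE 0.44), and BXL2, a xylosidase-like wall enzyme, at 110, 133 and 129 FPKM against 9.65, 11.9 and 12.5 FPKM (3.34, SE 0.22). FLA13, an arabinogalactan protein with a fasciclin domain, differed by 4.13 (SE 0.44). BXL2, which is outside the list, had a larger excess in flown than in ground roots, by 2.46 (SE 0.31, adjusted p 0.00165). The listed wall genes went the other way. On the ground 14 of the 15 were higher and none lower, and the difference was called toward lower flown values for 6 and toward higher ones for none. Of 15 aquaporins 7 were higher and 1 lower, whereas 1 was higher and 2 lower on the ground, and the difference was called toward flown roots for 4. PIP2A was at 1294, 1491 and 1387 FPKM against 622, 502 and 513 FPKM (1.35, SE 0.17, adjusted p 4.83e-05) and PIP1C at 1390, 1245 and 1380 FPKM against 928, 793 and 704 FPKM (0.73, SE 0.14). Both are water channels of the plasma membrane, and their differences between the contrasts were 1.05 (SE 0.24) and 1.01 (SE 0.20).

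Among markers of root tissues, those of the endodermis stood out. Of 8, 5 were higher and none lower, among them CASP1 at 191, 110 and 182 FPKM against 76.9, 37.5 and 68.1 FPKM (1.41, SE 0.29), CASP2 and CASP4 at 1.35 and 1.76, and ESB1 at 1.46. The CASP proteins and ESB1 build the Casparian strip, the seal of the root's inner cylinder. Among 6 phloem markers SEOa and SEOR1, which form protein filaments in sieve elements, were higher at 1.16 and 1.28. Of 13 root hair markers 5 were higher and 1, XTH26, was lower, under 1 FPKM in every Blue Origin WS library, but none of the 5 remained without Virgin Galactic replicate 3. Of 12 suberin genes 3 were higher, and none without Virgin Galactic replicate 2. Of 14 xylem markers 1 was higher and 1 lower, and of 6 root cap markers 1, the stem cell factor FEZ, was lower. None of 13 markers of dividing cells was called in flown roots, while 8 were higher at Blue Origin on the ground. The difference between the contrasts was called for only 1 of the 13, toward lower flown values. Of 61 class III peroxidase genes, enzymes of wall cross-linking, 20 were higher and 5 lower. AT5G17820 was at 255, 250 and 326 FPKM against 117, 87.0 and 81.1 FPKM (1.54, SE 0.24) and AT5G39580 at 7.24, 2.99 and 8.85 FPKM against 142, 41.6 and 83.8 FPKM (-3.55, SE 0.37). Of 14 phenylpropanoid genes 2 were higher and 3 lower, or 1 lower without Virgin Galactic replicate 1, with HCT, an enzyme of lignin precursors, at -0.78 (SE 0.15) and OMT1, which methylates them, at 0.66 (SE 0.14).

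Heat shock and protein folding genes had fewer higher calls in flown than in ground roots, and this difference in number was not tested. All tested genes also had fewer, at 10.1% in flown and 16.9% in ground roots. Of 17 heat shock genes 4 were higher in flown roots, 2 without Virgin Galactic replicate 3, and 10 were higher on the ground. MBF1C, a heat-induced co-activator, was at 20.3, 64.7 and 26.3 FPKM against 10.6, 14.3 and 3.50 FPKM (1.86, SE 0.42). Among the 17, the difference between the contrasts was called toward lower flown values for 5 and toward higher ones for HSFA7A alone. This heat shock factor was higher in flown roots by 1.18 (SE 0.23) and not called on the ground. Its difference between the contrasts was 1.64 (SE 0.33). Of 14 endoplasmic reticulum folding genes 1 was higher and 1 lower in flown roots, a share of higher calls below the 10.1% of all genes, against 11 higher and 1 lower on the ground, and the difference was called toward lower flown values for 6. The lower gene in flown roots was BZIP60, the factor spliced during folding stress, at 40.9, 44.5 and 43.0 FPKM against 90.9, 76.7 and 78.9 FPKM (-0.92, SE 0.17). Of 11 warmth and shade genes 1 was higher and 2 lower, among them HTA9, a histone variant that reports temperature, at -0.89 (SE 0.14). In the cold and dehydration list 5 of 20 were higher and 2 lower, with 3 higher without Virgin Galactic replicate 3. GolS1, which starts raffinose synthesis, was at 157, 274 and 162 FPKM against 26.7, 28.7 and 37.7 FPKM (2.60, SE 0.24, adjusted p 1.33e-06), and GRP7, a clock-controlled RNA-binding protein, at 1022, 581 and 846 FPKM against 2502, 2443 and 2394 FPKM (-1.62, SE 0.32). Of 14 hypoxia genes 3 were higher and 3 lower, with SUS1, a sucrose synthase, at 1.07 (SE 0.20) and the haemoglobin HB1 at -1.17 (SE 0.26).

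Ribosomal protein genes were lower as a group by a small amount. Of 272 tested, 54 were lower and 11 higher, with a median of -0.39, and their summed level was 67160 to 74640 FPKM at Blue Origin and 86700 to 106200 FPKM at Virgin Galactic. The groups' sums did not overlap, but the number of lower genes depended on single libraries and was 22 to 41 with a flown library left out, lowest without Virgin Galactic replicate 2. Fitted on the 6 flown libraries alone, 94 were lower and 8 higher. Among the 11 higher genes were RPS1 at 0.61, RPL12-A at 1.03 and RPL21C at 0.46, which encode ribosomal proteins of the plastid. RPL3P, which the reference names as a plastid ribosomal protein, was among the lower genes at -0.51 (SE 0.17). Members were not counted by compartment. On the ground 48 were higher at Blue Origin and 9 lower. Transcript length moved with the flown difference: with genes split into 5 groups of equal number by length, the median was -0.17 in the shortest group and 0.13 in the longest. The ribosomal genes had a median length of 1010 bases, and 3499 other genes of similar length had a flown median of -0.12. Its part in the result was not tested. Of 47 histone genes 9 were lower and 2 higher, with a median of -0.26, and 6 to 10 were lower with a flown library left out. The share of lower calls was 19.15%, against 10.8% of all genes. On the ground 13 were higher at Blue Origin and 7 lower. HTB1, a histone gene, was lower in flown roots, at 130, 124 and 119 FPKM against 231, 309 and 222 FPKM (-1.01, SE 0.25).

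The most abundant transcripts included some that were higher at Blue Origin. Genes annotated as ribosomal RNA held 16.0 to 21.7% of the summed values of flown Blue Origin libraries and 14.4 to 21.6% at Virgin Galactic. EXT3, an extensin that scaffolds the wall, was at 5647, 4140 and 5137 FPKM against 2161, 1286 and 1566 FPKM (1.59, SE 0.21). PYK10, a glucosidase of the endoplasmic reticulum bodies of roots, was at 4693, 7251 and 4424 FPKM against 2652, 2080 and 2032 FPKM (1.25, SE 0.26). TCTP, a growth regulator, was lower, at 2498, 3494 and 2711 FPKM against 5726, 4912 and 5591 FPKM (-0.91, SE 0.17). MT1A, a metallothionein gene, was listed at 0 in Blue Origin replicate 2, beside 13065 and 18812 FPKM in the others and 17783, 18682 and 25315 FPKM at Virgin Galactic, so no difference is drawn from it. A listed 0 of so abundant a gene may be a failed estimate, and other listed zeros carry the same doubt. Under a rule of 5 FPKM or more in all libraries of 1 flown group and under 0.1 FPKM in those of the other, 13 genes were present in a single group, 6 of them at Blue Origin and 7 at Virgin Galactic. PIRL8, a leucine-rich repeat protein, was at 5.82, 12.4 and 16.3 FPKM at Blue Origin. AT3G13433 was at 74.1, 18 and 53.1 FPKM and ARD3, an enzyme of methionine salvage, at 11.9, 11.8 and 6.37 FPKM at Virgin Galactic. Each of these was listed at 0 in every flown library of the other vehicle.

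Genes often used as constant references were called in flown roots at a share of 25%, against 20.8% of all tested genes. Of 8, 2 were higher at Blue Origin and none lower: GAPC1 at 1122, 1157 and 1159 FPKM against 643, 736 and 603 FPKM (0.80, SE 0.19), and PP2AA3 at 0.36 (SE 0.12), whose call was lost when single libraries were left out. ACT2 was at 842, 854 and 905 FPKM against 1007, 847 and 883 FPKM and was not called. On the ground 4 of the 8 reference genes were called higher at Blue Origin and 3 lower. SKU5, the gene mutated in the other line of the Blue Origin flight and intact in these plants, was at 65.6, 51.1 and 60.2 FPKM against 37.2, 44.0 and 45.1 FPKM (0.47, SE 0.24, adjusted p 0.177). Its family members sks5 at 0.89 (SE 0.18) and sks17 at 0.66 (SE 0.16) were higher, 2 of 7 tested.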

How the data were processed

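The authors deposited a table of expression values per gene, taken here as FPKM (fragments counted per transcript length and sequenced total). The column names do not state the unit. It was inferred from column sums that are unequal, at 1021562 to 1123929. Whether the values are FPKM or another scaled unit could not be checked. Per the submitters' processing notes, Trimmomatic 0.36, FastQC 0.11.4, MultiQC 1.1, STAR 2.7.3a, RSEM 1.2.31 and DESeq2 were used, and their roles and the genome build are not stated there. Poly(A) RNA of roots went into NEBNext Ultra Directional libraries, per the labels' protocols. Read depth is unknown, so no counting error is given. Genes that reached 1 FPKM in 3 or more of the 18 WS and sku5 libraries were kept, and log2(FPKM + 1) was fitted with limma 3.58.1 in R 4.3.3 (trended variance, 6 groups, 12 residual degrees of freedom) and tested on simulated data. p-values were adjusted by Benjamini-Hochberg over 20127 genes. Named genes were the 12 largest differences each way among called genes whose groups did not overlap, up to 4 called members of each list, the 6 largest differences between contrasts each way, the 10 most abundant genes, genes present in 1 group, SKU5 and reference genes. The members and lists were chosen with earlier results of these data known. Of 528 list members 522 were matched. Organelle genes were not analysed here. Promoters were read from RefSeq TAIR10.1, and only the bases before the start were used. Alternatives were other filters, pseudocounts, scalings, a replicate block and leaving out each library. Some results are not reported here.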

Additional observations from a re-analysis of the deposited data

Results flagged for a closer look

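For each gene below the Blue Origin minus Virgin Galactic difference was not the same in flown and in ground roots, by limma's test of the difference between the contrasts (flown minus ground, log2 scale, 3 libraries in each of the 4 groups). The flown contrast lay below the ground contrast for 14 named genes. Among stress and light genes these were ELIP1 at -5.41 and HSP70 at -2.17, and in the flavonoid pathway TT4 at -4.02, CHIL at -3.03 and F3H at -2.66. The others were AT3G06895 at -4.26, NIA1 at -2.71, RALFL24 at -2.52, NAC097 at -2.36, NAS4 at -2.23, PCNA1 at -1.69, HB1 at -1.38, AOC3 at -1.32 and AT5G48760 at -0.76.

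The flown contrast lay above the ground contrast for 30 named genes. Among dark, sugar and amino acid genes these were SEN1 at 5.40, BCAT-2 at 4.27, SWEET12 at 3.87, ASPGB1 at 3.86, GAT1_2.1 at 3.41, DIN10 at 2.42, STP1 at 2.11 and SUS1 at 1.06. Water channel genes were PIP1;5 at 1.43, PIP2A at 1.05 and PIP1C at 1.01. Ethylene and jasmonate genes were ORA59 at 2.51, EBF2 at 1.73, EBP at 1.29 and ERS1 at 1.12. Nitrate transporter genes were NRT2.6 at 1.77 and NRT1.5 at 1.48. The reference and cytoskeleton genes ACT8 at 1.02, ACT2 at 0.80 and UBQ3 at 1.31 differed as well. The rest were ATL8 at 4.10, AT2G05230 at 3.42, AT2G43530 at 3.09, BXL2 at 2.46, CDF2 at 1.86, BBX28 at 1.86, GolS1 at 1.72, HSFA7A at 1.64, ERF71 at 1.58 and KCS20 at 0.88.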

How the results depend on the processing

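Of the 4194 flown calls, 2879 to 3166 were also called with a flown library left out, and 3228 with only the libraries compared fitted. Flown calls numbered 3023 to 3522 with a flown library left out and 3668 when only the libraries compared were fitted. They numbered 3983 to 4381 under other filters, pseudocounts, scalings or no variance trend. The number of flown calls stayed within 1.5 times of 4194 under every alternative run. The number of calls for the difference between contrasts did not, running from 467 to 1878 with single libraries left out: 616 without Virgin Galactic flown replicate 2, 881 and 715 without Blue Origin flown replicates 1 and 3, 649 and 530 without Virgin Galactic ground replicates 1 and 3, and 467 and 780 without Blue Origin ground replicates 1 and 3. The cause was not tested. Genes present in 1 flown group numbered 3 at 10 FPKM against under 0.1 FPKM and 27 at 5 FPKM against under 0.5 FPKM. With the replicate number as a block, 3837 flown genes, 6123 ground genes and 998 differences were called, and same-numbered libraries did not deviate together (r -0.13 to 0.04), so the numbers pair nothing. Under median-of-ratios scaling 62.8% of called differences were positive, against 53.2% as reported. Some flown signs reversed for genes that were not called: under quantile normalization ACT2 (0.033) and RALFL24 (0.017), and with single libraries left out ACT2 (-0.12 to 0.0036), RALFL24 (-0.26 to 0.14), ATL8 (-0.10 to 0.44), AT2G01020 and AT3G41979 (-0.30 to 0.096), F3H (-0.57 to 0.52), CHIL (-0.18 to 0.50) and YLS8 (-0.079 to 0.060). Unknown depth limits statements on genes near 0.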
